A study of Mus musculus with 8 samples.

Results

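The piRNA loci pi-Eif4ebp2.1, pi-Ip6k1.2, pi-1700006A11Rik.2, pi-Luzp1.1 and pi-Socs7.1, each named for a mouse gene, were examined in testis RNA of mice lacking part of Exd2. These 5 of the 208 loci counted in the study, and of its 114 gene-named loci, were picked by name because their long RNA was higher in the mutant. Long RNA values at these loci are therefore given as a description without a test. The small RNA, which the stated reason for the choice does not name, was tested. The choice was made with earlier results of these data known, so it may not be independent of the small RNA. Adult Exd2∆ testes, from mice of the C57BL6 background whose genome was edited in embryos with Cas9 to remove the end of exon 2 of Exd2 and part of the following intron, were compared with adult Exd2+/+ testes. Each genotype had 2 replicates in small RNA-seq and 2 in rRNA-depleted long RNA-seq, 8 libraries in all, and the submitters call the replicates biological. No label says how many founder lines or animals stand behind a replicate.

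PIWI-interacting RNAs (piRNAs) are small RNAs of germ cells that guide PIWI proteins to silence transposons and other transcripts. They are cut from long single-stranded precursors on the surface of mitochondria, in spermatocytes at the intermitochondrial cement. Many precursors are intergenic non-coding transcripts, while genic piRNAs come from transcripts of protein-coding genes and often from their 3′ untranslated regions. Long RNA counted at a genic locus can thus be mRNA, piRNA precursor or both, and each table holds a single long RNA count per locus and library, so the parts of mRNA and precursor cannot be told apart. Small RNA counted at a locus is called piRNA here, without a check of its length. In bulk testis RNA, fewer cells of a type and less RNA per cell cannot be told apart either.

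The small RNA libraries summed to between 28408830 and 37660202 estimated counts over the 208 loci and the long RNA libraries to between 960909 and 1842625, each lowest in Exd2∆ replicate 1 and highest in Exd2+/+ replicate 2. The lowest count at any of the 5 loci was 324 in small RNA and 3141 in long RNA, for a counting error of 5.56% and 1.78%. Levels are CPM, a library's counts rescaled to a common total over the 208 loci and adjusted by the trimmed mean of M-values (TMM), so a shift shared by all loci would not be seen. Exd2 itself and markers of testis cell types lie outside the 208 loci, and neither the deletion nor the tissue label was checked here. As background, 7.69% of all 208 loci were called in long RNA in either direction, from which nothing is read about the 5 loci.

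At 4 of the 5 loci fewer small RNAs were found in Exd2∆ while the long RNA was higher, and at pi-Luzp1.1 the small RNA did not pass the test. By the edgeR quasi-likelihood test, adjusted over all 208 loci at 0.05, 4 of the 5 loci fell in small RNA and 0 rose, beside 31.7% of all loci that fell and 33.2% that rose. The falls ran from 1.53-fold at pi-Socs7.1 to 4.59-fold at pi-Ip6k1.2. Both Exd2∆ libraries lay below both Exd2+/+ libraries in small RNA at all 5 loci, against 39.4% of all loci. The median small RNA log2 fold change was -0.85 over the 5 loci, 0.07 over the other 109 gene-named loci and 0.04 over all loci. Together the 5 loci held 0.221% and 0.268% of the small RNA counts in the Exd2∆ libraries, against 0.448% and 0.445% in the Exd2+/+ libraries. In long RNA, whose contrast chose the loci, they held 5.89% and 5.21% in Exd2∆, against 3.69% and 3.95% in Exd2+/+. The median long RNA log2 fold change was 0.07 over the other 109 gene-named loci, with 78 above 0 and 31 below. Over the 94 band-named loci it was -0.12, with 29 above 0 and 65 below.

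**Figure D1:**
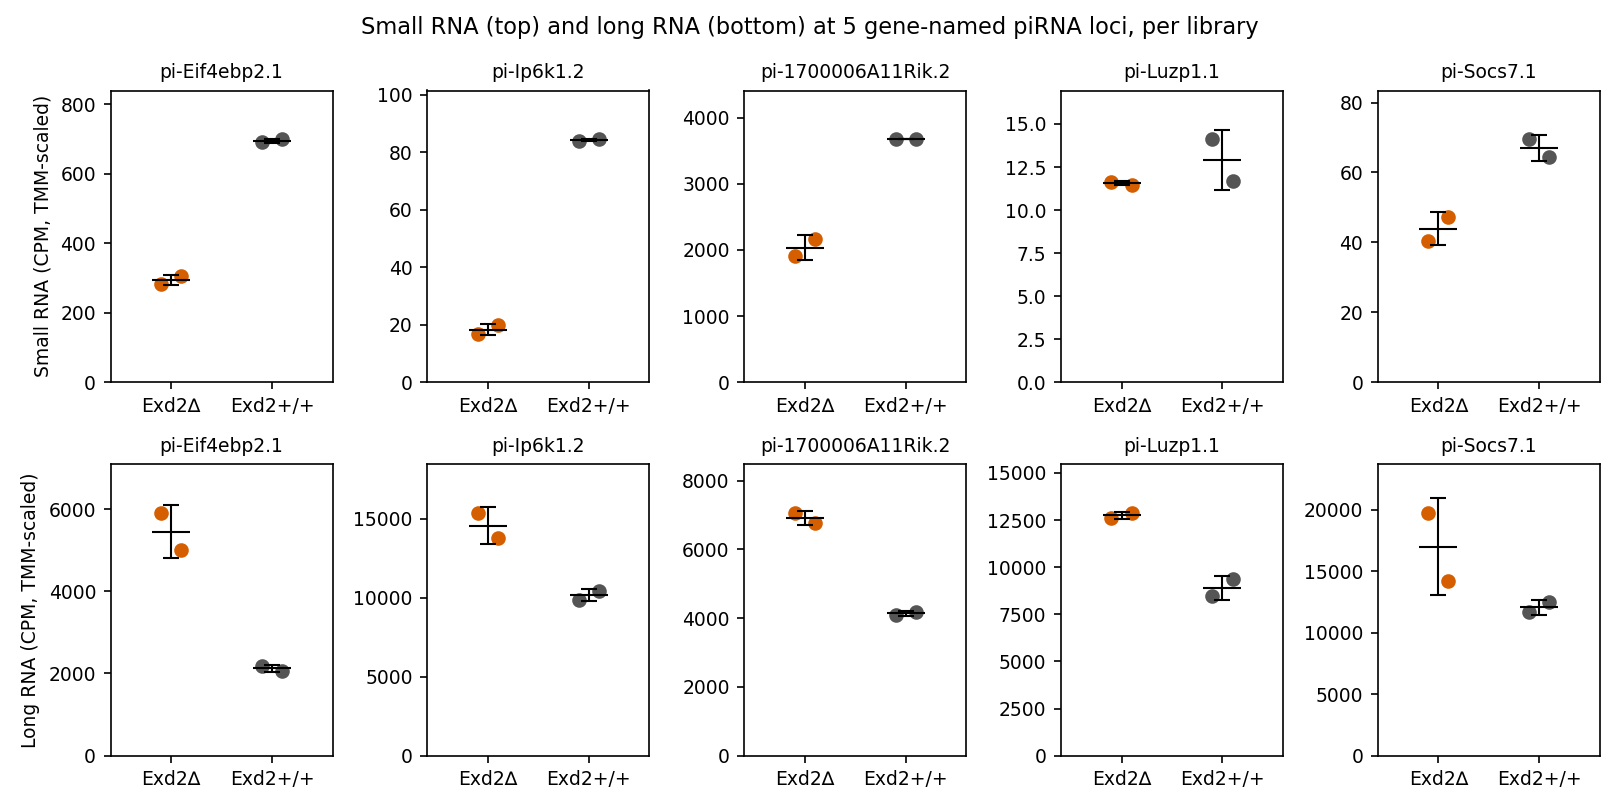
Small RNA (top row) and long RNA (bottom row) in CPM at each of the 5 loci, with 1 point per library (orange, Exd2∆; grey, Exd2+/+), a bar at the mean and whiskers of 1 SD (n = 2). Small RNA is lower in Exd2∆ at 4 loci, the 2 genotypes nearly meet at pi-Luzp1.1, long RNA is higher in Exd2∆ at all 5, and the Exd2∆ long RNA libraries lie far apart at pi-Socs7.1.

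pi-Eif4ebp2.1 had the largest long RNA difference of the 5. It covers Eif4ebp2 (ENSMUSG00000020091.15), which encodes 4E-BP2, a protein that binds the cap-binding factor eIF4E and represses translation until mTOR phosphorylates it. The locus spans chromosome 10, 61428491 to 61452798 on the minus strand (GRCm38), ends at the annotated 3′ end of the gene and starts 137 bp upstream of it. Its long RNA stood at 5913 and 4993 CPM in the Exd2∆ libraries, against 2192 and 2069 CPM in the Exd2+/+ libraries. The groups lay well apart, and the difference of 1.36 on the log2 scale, 2.56-fold, was the highest of the 114 gene-named loci and the second highest of all 208. Its small RNA stood at 283 and 305 CPM in Exd2∆, against 691 and 700 CPM in Exd2+/+. The piRNAs fell by 1.24 ± 0.08 on the log2 scale (SE; adjusted p = 1.61e-06, edgeR quasi-likelihood), so the differences in the 2 assays were of like size and opposite sign. The authors' deposited table gives log2 fold changes of -1.24 in small and 1.33 in long RNA.

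pi-Ip6k1.2 had the deepest fall in small RNA of the 5, second among all 208 loci. Ip6k1 (ENSMUSG00000032594.11) encodes an inositol hexakisphosphate kinase that makes inositol pyrophosphates, and male mice without it are infertile, with round spermatids that lack the chromatoid body, a germ granule related to the intermitochondrial cement. The locus spans chromosome 9, 107995742 to 108048780 on the plus strand. Its small RNA stood at 16.9 and 19.8 CPM in Exd2∆, against 83.9 and 84.5 CPM in Exd2+/+. The Exd2∆ level was 21.8% of that in Exd2+/+, a fall of 2.20 ± 0.14 on the log2 scale (SE; adjusted p = 1.61e-06, edgeR quasi-likelihood). The long RNA stood at 15401 and 13763 CPM in Exd2∆, against 9886 and 10438 CPM in Exd2+/+. The groups did not overlap, and the long RNA difference of 0.52 on the log2 scale was much smaller than the fall in small RNA.

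pi-1700006A11Rik.2 was the richest of the 5 in piRNAs. 1700006A11Rik (ENSMUSG00000027973.11) is annotated as protein-coding. The locus spans chromosome 3, 124398082 to 124425991 on the minus strand. Its small RNA stood at 1900 and 2165 CPM in Exd2∆, against 3674 and 3672 CPM in Exd2+/+. The piRNAs fell by 0.85 ± 0.07 on the log2 scale (SE; adjusted p = 6.25e-06, edgeR quasi-likelihood) to 55.3% of the Exd2+/+ level. The long RNA stood at 7072 and 6783 CPM in Exd2∆, against 4090 and 4185 CPM in Exd2+/+. Replicates of a genotype lay close together in long RNA, where the difference was 0.74 on the log2 scale. In small RNA this held in Exd2+/+, while the Exd2∆ libraries lay farther apart.

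pi-Socs7.1 had the highest long RNA CPM of the 5 in Exd2∆, where its replicates also lay farthest apart in long RNA. Socs7 (ENSMUSG00000038485.5) encodes a member of the suppressor of cytokine signalling family, whose SOCS box recruits ubiquitin ligase components. The locus spans chromosome 11, 97362327 to 97398541 on the plus strand. Its small RNA stood at 40.5 and 47.2 CPM in Exd2∆, against 69.5 and 64.4 CPM in Exd2+/+. The piRNAs fell by 0.61 ± 0.14 on the log2 scale (SE; adjusted p = 0.00356, edgeR quasi-likelihood). The long RNA stood at 19751 and 14197 CPM in Exd2∆, against 11639 and 12510 CPM in Exd2+/+. The difference of 0.49 on the log2 scale rested largely on Exd2∆ replicate 1, and without that library it was 0.24.

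pi-Luzp1.1 had more long RNA in Exd2∆ without a called change in piRNAs. Luzp1 (ENSMUSG00000001089.14) encodes a leucine zipper protein that associates with actin filaments and centrosomes. The locus spans chromosome 4, 136469763 to 136554782 on the plus strand and matches the gene within 2 bp at both ends. Its long RNA stood at 12611 and 12895 CPM in Exd2∆, against 8448 and 9350 CPM in Exd2+/+, a difference of 0.52 on the log2 scale. Its small RNA stood at 11.6 and 11.5 CPM in Exd2∆, against 14.1 and 11.7 CPM in Exd2+/+. The small RNA groups nearly met, and the log2 fold change of -0.16 ± 0.13 (SE) missed the threshold (adjusted p = 0.314, edgeR quasi-likelihood). It ranged from -0.29 to -0.02 over the alternative settings, with adjusted p between 0.153 and 0.940. With 324 to 431 counts per library, this was the least covered of the 5 in small RNA.

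**Figure D2:**
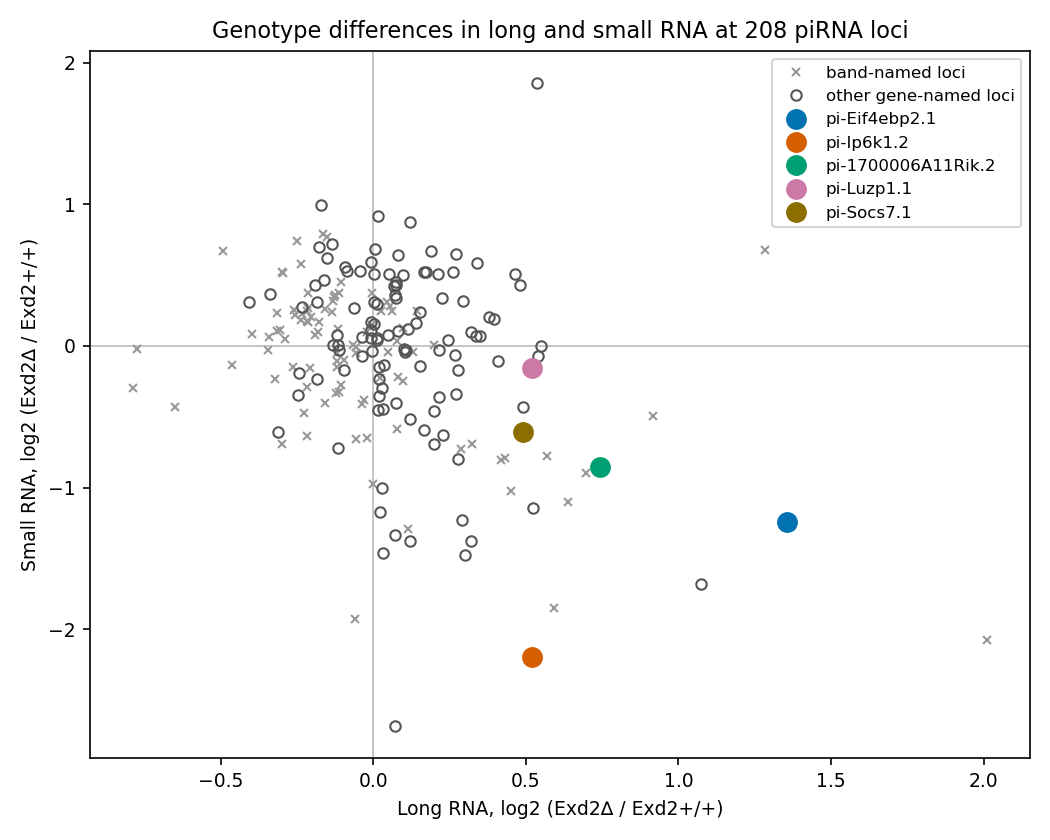
Log2 difference between Exd2∆ and Exd2+/+ in long RNA (x axis) and small RNA (y axis) at the 208 loci; filled points are the 5 loci, open circles the other gene-named loci and crosses the band-named loci. The 5 loci lie to the right, between 0.49 and 1.36 in long RNA, because they were picked there, and between -2.20 and -0.16 in small RNA.

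The small RNA differences did not follow the order of the long RNA differences among the 5 loci. From the largest to the smallest long RNA difference, the loci were pi-Eif4ebp2.1, pi-1700006A11Rik.2, pi-Ip6k1.2, pi-Luzp1.1 and pi-Socs7.1, and the last 3 lay between 0.49 and 0.52 on the log2 scale. The small RNA differences of those 3 nevertheless ran from -2.20 at pi-Ip6k1.2 to -0.61 at pi-Socs7.1 and -0.16 at pi-Luzp1.1.

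The 5 loci rank 1, 3, 8, 9 and 11 among the 114 gene-named loci by long RNA difference, so the choice by name passed over loci with similar values. pi-Lsmd1.1 ranks between pi-Eif4ebp2.1 and pi-1700006A11Rik.2, with a long RNA difference of 1.07. pi-Dcaf7.1 (0.55), pi-Uhrf1bp1.1 (0.54), pi-Hjurp.2 (0.54) and pi-Mlec.1 (0.52) rank just above pi-Ip6k1.2, and pi-Asb1.2 (0.49) just above pi-Socs7.1. Just below pi-Socs7.1 stands pi-Atxn1l.1 (0.48). At pi-Lsmd1.1, pi-Dcaf7.1, pi-Uhrf1bp1.1, pi-Mlec.1 and pi-Asb1.2, as at pi-Socs7.1, Exd2∆ replicate 1 lay well above Exd2∆ replicate 2 in long RNA, for example 11795 against 8284 CPM at pi-Mlec.1. In small RNA these neighbours were mixed by the edgeR quasi-likelihood test. pi-Lsmd1.1 (-1.68 ± 0.14 SE, adjusted p = 7.14e-06), pi-Mlec.1 (-1.14 ± 0.13, adjusted p = 5.83e-05) and pi-Asb1.2 (-0.43 ± 0.06, adjusted p = 1.34e-04) fell. pi-Hjurp.2 rose by 1.86 (adjusted p = 1.17e-04, edgeR quasi-likelihood) and pi-Atxn1l.1 by 0.43 (adjusted p = 0.0199), a call that 4 of 14 alternative settings lost. By the same edgeR test, pi-Dcaf7.1 (adjusted p = 0.982) and pi-Uhrf1bp1.1 (adjusted p = 0.630) did not pass.

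The gene models within the loci differ in ways that bear on what the counts can hold. Exons on the strand of the locus cover 32.6% of the span of pi-Eif4ebp2.1, 20.1% of pi-Socs7.1, 16.2% of pi-Ip6k1.2, 13.6% of pi-1700006A11Rik.2 and 9.54% of pi-Luzp1.1, with a median of 21.2% over the other gene-named loci. Of these exonic bases, 3′ untranslated sequence makes up 71.4% at pi-Socs7.1, 67.0% at pi-Eif4ebp2.1, 52.9% at pi-Ip6k1.2 and 51.9% at pi-Luzp1.1, but 10.7% at pi-1700006A11Rik.2, and the median of the other gene-named loci is 60.0%. The coding sequence of Eif4ebp2 is short, at 360 bp of the 7926 exonic bp in its locus. Of those exonic bp, 5784 belong to Eif4ebp2 and 2142 to Gm48086, a gene model on the same strand within an intron of Eif4ebp2. All gene models on the strand count in the shares above and in the exon length used for levels per kb. The shares are therefore not those of the named gene alone. At pi-Eif4ebp2.1, 5309 bp are 3′ untranslated sequence. At pi-1700006A11Rik.2 these are 404 bp, and the named gene has 2112 exonic bp there. pi-1700006A11Rik.2 runs 2907 bp past the annotated 3′ end of its gene, over the 1673-bp gene model 4921527H02Rik on the same strand. pi-Ip6k1.2 starts 6759 bp upstream of Ip6k1, covers the last 3943 bp of the cadherin-related gene Cdhr4 and all of Gm20662, a gene model with exons inside both Cdhr4 and Ip6k1, all on the same strand. Long RNA at pi-Eif4ebp2.1, pi-1700006A11Rik.2 and pi-Ip6k1.2 can therefore come from more than 1 annotated gene, and the share of each was not tested. Within pi-Luzp1.1, 2721 bp are exons of Kdm1a, a histone demethylase gene on the opposite strand, and opposite-strand exons also cover 1770 bp of pi-Ip6k1.2 and 366 bp of pi-1700006A11Rik.2. Reads there are kept apart only if counting used the strand, a setting not given in the sources used here.

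**Figure D3:**
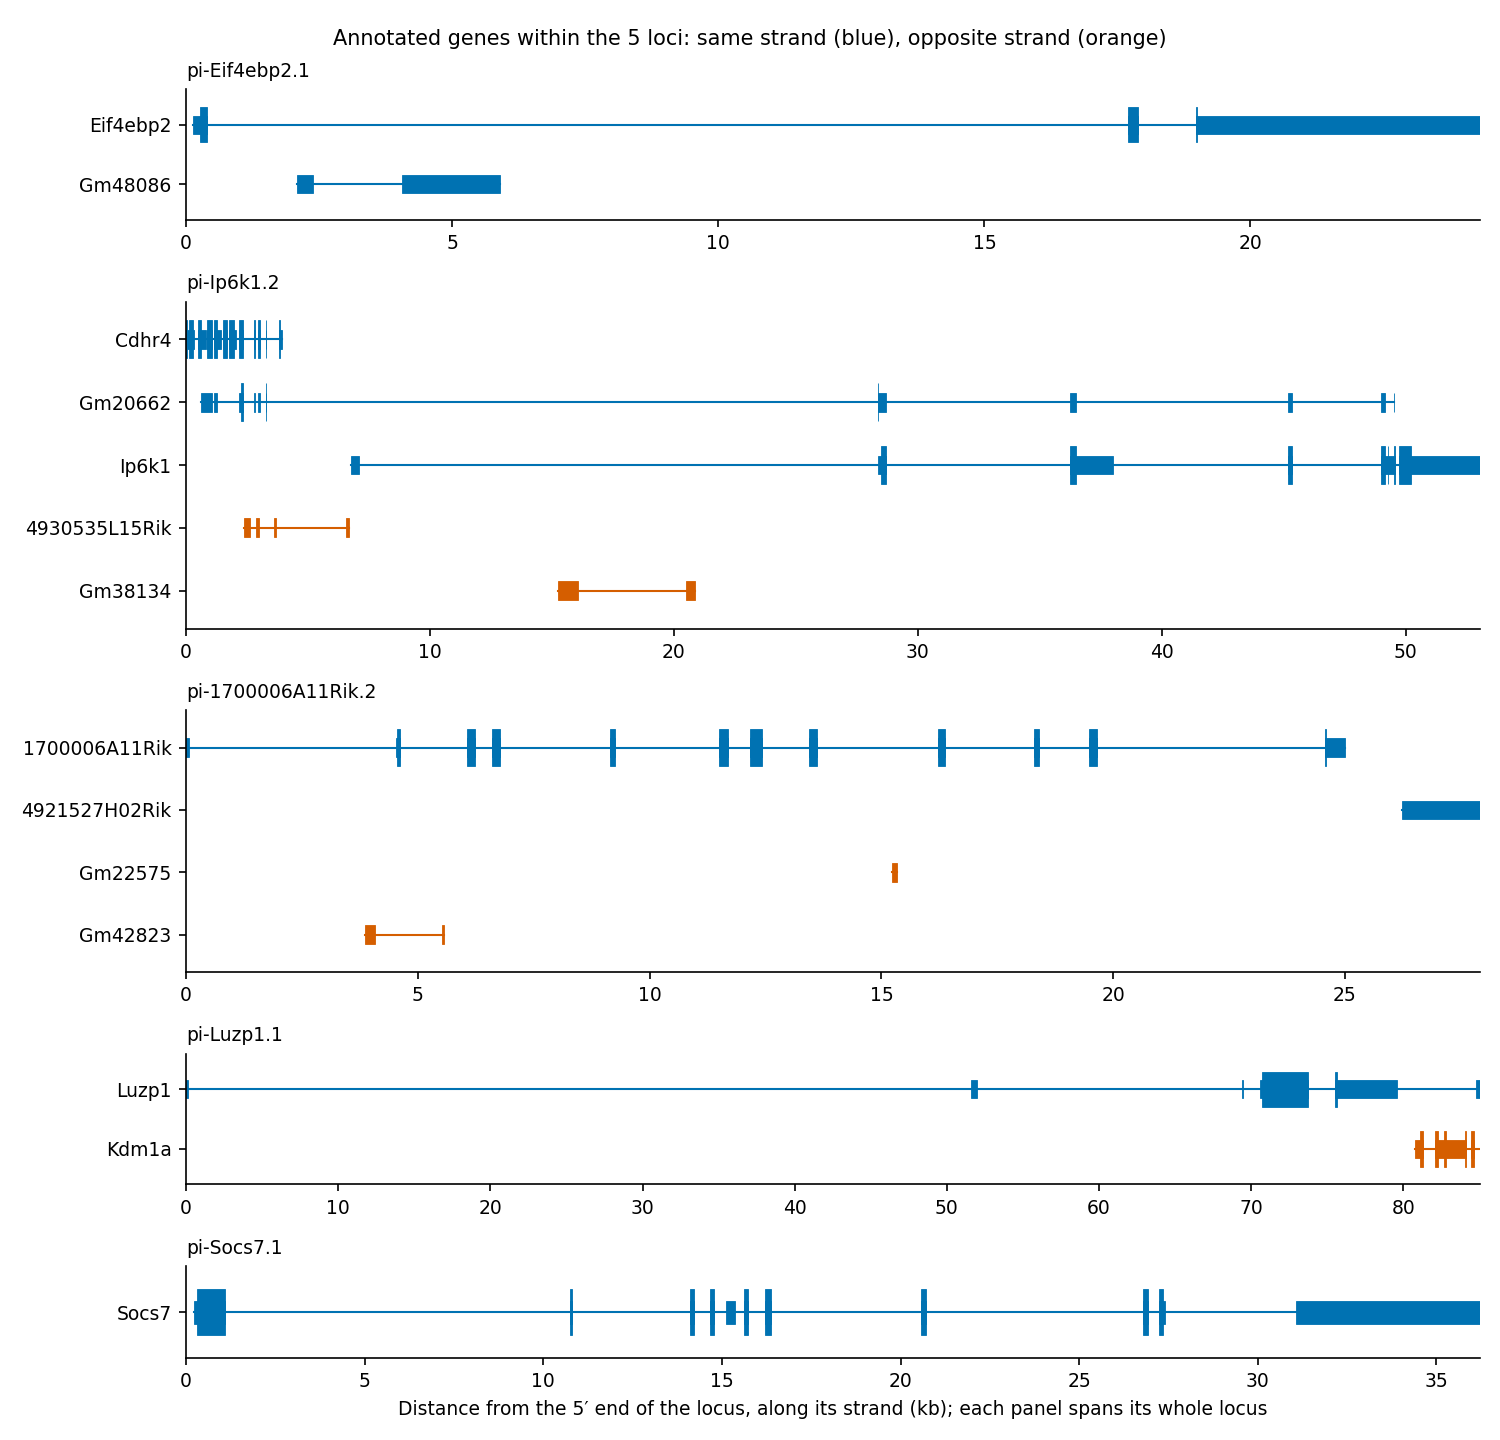
Annotated genes within each of the 5 loci, by distance in kb from the 5′ end of the locus along its strand; lines are genes, low boxes exons and tall boxes coding sequence, in blue on the strand of the locus and in orange on the other strand. A long last exon of mostly untranslated sequence ends pi-Eif4ebp2.1, pi-Ip6k1.2 and pi-Socs7.1. pi-Ip6k1.2 reaches upstream past the gene it is named for, and pi-1700006A11Rik.2 reaches downstream past its gene.

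The sequence table used here (RefSeq, GRCm38.p6) holds promoters for 3 of the 5 genes. The shared direction in long RNA chose the loci, and a shared promoter feature was not tested. The promoters are shown as a description, since the loci start at different distances from the annotated gene start. Each runs from 250 bases before to 50 bases after the annotated start, at chr10:61452620-61452919 (minus strand) for Eif4ebp2, chr9:108002398-108002697 (plus) for Ip6k1 and chr4:136469511-136469810 (plus) for Luzp1. Capitals mark matches on either strand to TAACNG, a core bound by MYB family factors such as A-MYB, which drives pachytene piRNA genes, or to CCAAT, bound by NF-Y.
Eif4ebp2: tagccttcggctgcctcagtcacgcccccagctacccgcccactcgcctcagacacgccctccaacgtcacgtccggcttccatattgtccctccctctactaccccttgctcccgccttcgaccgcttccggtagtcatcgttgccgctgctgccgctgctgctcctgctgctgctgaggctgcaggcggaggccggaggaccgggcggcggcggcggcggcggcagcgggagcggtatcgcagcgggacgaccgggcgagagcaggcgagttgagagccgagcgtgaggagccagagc
Ip6k1: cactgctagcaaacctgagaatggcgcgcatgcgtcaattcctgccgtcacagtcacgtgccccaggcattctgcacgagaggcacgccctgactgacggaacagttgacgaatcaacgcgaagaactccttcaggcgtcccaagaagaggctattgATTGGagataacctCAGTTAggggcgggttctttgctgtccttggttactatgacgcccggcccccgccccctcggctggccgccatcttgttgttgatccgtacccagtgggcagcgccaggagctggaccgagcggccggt
Luzp1: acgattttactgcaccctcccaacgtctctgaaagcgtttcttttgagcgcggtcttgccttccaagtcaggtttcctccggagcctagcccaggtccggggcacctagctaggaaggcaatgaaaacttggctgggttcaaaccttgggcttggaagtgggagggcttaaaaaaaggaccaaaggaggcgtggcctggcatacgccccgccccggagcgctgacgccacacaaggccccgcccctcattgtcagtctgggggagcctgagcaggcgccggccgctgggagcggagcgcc
Both motifs occur in the Ip6k1 promoter, as CAGTTA from base 172 to 177 and ATTGG from base 158 to 162 of the sequence, each on the minus strand, and neither in the other promoters shown. Of the 32851 promoters in the table, 23.3% hold TAACNG and 37.4% hold CCAAT, and among 100 promoters matched by symbol to gene-named loci the shares are 22.0% and 38.0%. The motifs do not overlap. The annotated Ip6k1 start lies 6906 bp inside its locus, whereas those of Luzp1 and Eif4ebp2 lie within 2 and 129 bp of the locus start.

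Per kb of annotated exon on its strand, small RNA in Exd2+/+ was highest at pi-1700006A11Rik.2, which stood at 537 ± 49.5 CPM per kb in Exd2∆ and 970 ± 0.336 in Exd2+/+ (SD, n = 2 here and below). At pi-Eif4ebp2.1 the level was 37.1 ± 1.93 CPM per kb in Exd2∆ and 87.7 ± 0.756 in Exd2+/+. pi-Ip6k1.2 stood at 2.14 ± 0.239 CPM per kb in Exd2∆ and 9.82 ± 0.0560 in Exd2+/+, and pi-Socs7.1 at 6.03 ± 0.650 in Exd2∆ and 9.22 ± 0.502 in Exd2+/+. In Exd2+/+ the order of the last 2 loci depends on the length used, since per kb of the whole span pi-Socs7.1 was above pi-Ip6k1.2 (1.85 against 1.59 CPM per kb). pi-Luzp1.1 was lowest, at 1.42 ± 0.0145 CPM per exon kb in Exd2∆ and 1.59 ± 0.214 in Exd2+/+.

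Long RNA per exon kb gave a different order and a narrower range. pi-Socs7.1 led with 2337 ± 541 CPM per kb in Exd2∆ and 1662 ± 84.8 in Exd2+/+. pi-Ip6k1.2 stood at 1701 ± 135 CPM per kb in Exd2∆ and 1185 ± 45.5 in Exd2+/+, pi-Luzp1.1 at 1573 ± 24.8 in Exd2∆ and 1097 ± 78.6 in Exd2+/+, and pi-1700006A11Rik.2 at 1830 ± 54.2 in Exd2∆ and 1093 ± 17.7 in Exd2+/+. In Exd2+/+ the last 2 of these do not differ beyond their spread, and pi-Ip6k1.2 and pi-Luzp1.1 meet at 1153. pi-Eif4ebp2.1 was lowest of the 5 per exon kb in both genotypes, at 688 ± 82.1 CPM per kb in Exd2∆ and 269 ± 10.98 in Exd2+/+. This order too depends on the length used. Per kb of the whole span, pi-Luzp1.1 was lowest in Exd2∆ (150 against 224 CPM per kb at pi-Eif4ebp2.1). By span in Exd2+/+, pi-Luzp1.1 lay below pi-1700006A11Rik.2 (105 against 148 CPM per kb), and pi-Eif4ebp2.1 stayed lowest (87.7).

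The loci thus differed in how much small RNA was counted per long RNA. The ratio of small to long RNA CPM was 0.293 in Exd2∆ and 0.888 in Exd2+/+ at pi-1700006A11Rik.2, the third highest of the 114 gene-named loci in Exd2+/+. At pi-Eif4ebp2.1 it was 0.0539 in Exd2∆ and 0.326 in Exd2+/+, which ranks 11 of 114. The other 3 loci had the lowest ratios of the 5. The ratio stood at 0.00126 in Exd2∆ and 0.00829 in Exd2+/+ at pi-Ip6k1.2, at 0.00258 in Exd2∆ and 0.00554 in Exd2+/+ at pi-Socs7.1, and at 9.05e-04 in Exd2∆ and 0.00145 in Exd2+/+ at pi-Luzp1.1. The last is the fifth lowest in Exd2+/+ of all 208 loci, whose median was 0.164, against 0.863 over the 94 band-named loci. CPM of the 2 assays have different totals, so the ratio ranks loci and does not count piRNAs per precursor. The ratio divides by the long RNA that chose the 5 loci. Its lower value in Exd2∆ therefore follows in part from that choice and is no separate result.

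**Figure D4:**
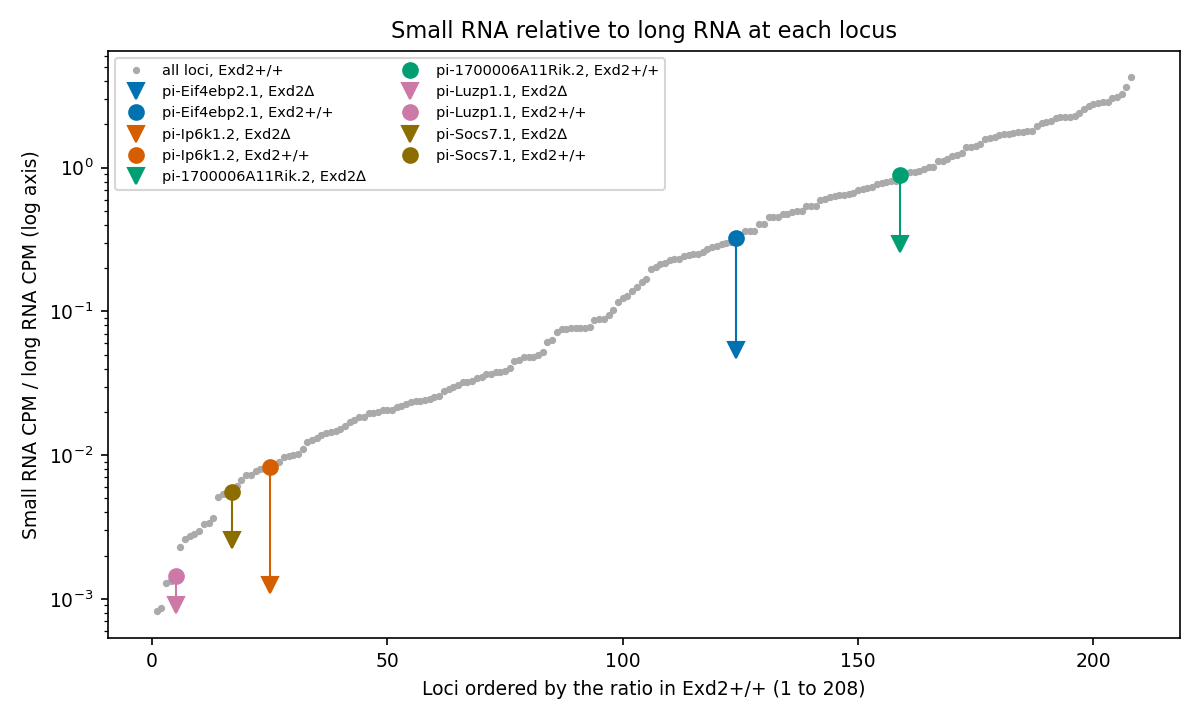
Ratio of small RNA CPM to long RNA CPM (log axis) at the 208 loci, ordered by the ratio in Exd2+/+ (grey points); coloured triangles are the 5 loci in Exd2∆ and circles the same loci in Exd2+/+. The 5 loci span from 0.00145 to 0.888 in Exd2+/+. Each triangle lies below its circle, in part because the loci were picked for higher long RNA in Exd2∆.

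By the mean absolute difference in log2 CPM over all 8 libraries, each locus centred on its mean within an assay, the profile most like that of pi-Eif4ebp2.1 was 1-qD-2017.2, a band-named locus, at 0.02. That locus differed by -1.28 in small and 1.35 in long RNA on the log2 scale, so the opposition is not confined to gene-named loci. pi-1700006A11Rik.2 was closest to the band-named 1-qE3-706.1 (0.04) and 15-qE1-3710.1 (0.07). The median distance of pi-Eif4ebp2.1 from all other loci was 0.66 and that of pi-1700006A11Rik.2 was 0.42. pi-Ip6k1.2 was nearest to 13-qA3.1-355.1 (0.11) and then to 13-qA5-967.1 (0.22), and the second nearest to pi-Eif4ebp2.1 was 4-qD3-2082.1 (0.21). The long RNA log2 difference was 0.59 at 13-qA3.1-355.1 but -0.06 at 13-qA5-967.1, which thus lacks the higher long RNA. pi-Socs7.1 lay nearest to 8-qA4-155.1 and pi-Ddx19b.1 (0.08 each), and pi-Luzp1.1 to pi-Il17rd.1 and pi-Ctdsp2.1 (0.10 each), with medians over all other loci of 0.31 and 0.25.

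A search of the 208 names for the fragments Eif4ebp, Eif4e, Ip6k, Luzp, Socs and Rik, which would miss relatives under other names, added only pi-D730040F13Rik.1 and pi-1700016M24Rik.2, which share only a naming style with 1700006A11Rik. In small RNA pi-D730040F13Rik.1 rose by 0.37 ± 0.13 on the log2 scale, SE (edgeR quasi-likelihood adjusted p = 0.0302), a call lost in 7 of 14 alternative settings. pi-1700016M24Rik.2 stood at 0.19 ± 0.09 and missed the threshold (edgeR adjusted p = 0.0844). Their long RNA differences were -0.34 and 0.39.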

How the data were processed

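The authors deposited 2 tables, 1 per assay, of estimated counts at 208 loci, neither whole nor scaled to library size. Per the file headers, the deposited tables also give the authors' log2 fold change and adjusted p-value from edgeR. Per the labels' protocols, 10 µg of total RNA was size-selected on a gel for small RNA, 1 µg was depleted of rRNA for directional long RNA libraries, and single-end reads of 50 nt were taken. The submitters' processing notes list cutadapt, STAR, edgeR and GRCm38. How reads were counted, by strand and among repeated alignments, is not given in the sources used here.

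Estimated counts were rounded and fitted over all 208 loci per assay in R 4.3.3 with edgeR 4.0.16 (filterByExpr, TMM, glmQLFit with the legacy option, glmQLFTest, genotype as the only term), with Benjamini-Hochberg adjustment and a threshold of 0.05. A locus was called when its adjusted p was below it. The standard error is the log2 fold change over the root of F. Exons came from GENCODE M21. DESeq2 1.42.0, limma 3.58.1 and other settings served as alternatives, and the fits were tested on simulated data. There a change of 1.25-fold was recovered at 62.5% of changed loci in small RNA and 28.75% in long RNA. For 1.5-fold the shares were 97.25% and 88.5%. Of unchanged loci, 1.42% were called in small RNA and 1.82% in long RNA. Both genotypes were simulated with the same dispersion at a locus, so the shares do not cover a spread that differs between genotypes. Replicates of a genotype differed by more than sampling noise, and more so in Exd2∆. Chi-square per degree of freedom in small RNA was 425 in Exd2∆ and 114 in Exd2+/+. In long RNA it was 95.8 in Exd2∆ and 20.1 in Exd2+/+. The named loci were the 5, the 2 nearest to each in profile, their neighbours in the long RNA ranking of gene-named loci, and a list by name fragment. The 5 loci, these lists and the legacy option were chosen with earlier results of these data known. CPM errors cover 2 replicates, and intervals from counts cover counting error only.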

Additional observations from a re-analysis of the deposited data

How the results depend on the processing

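The small RNA calls of the 5 loci (4 lower, 0 higher) did not change under any of the 14 alternatives run: RLE or library-total scaling, no filter or at least 100 counts in 2 libraries, DESeq2, edgeR's exact test, limma-voom, the default quasi-likelihood option, the replicate block, an adjusted p below 0.1 and leaving out each library. The edgeR quasi-likelihood call closest to the threshold was pi-Socs7.1 with Exd2+/+ replicate 1 left out, at an adjusted p of 0.0487 (5.62e-06 with edgeR's exact test, its lowest). Leaving out 1 library gave 101 to 123 calls over all loci in small RNA, where the full fit had 135, and the replicate block 118. The small RNA log2 fold change ranged over the 14 alternatives from -1.30 to -1.19 at pi-Eif4ebp2.1, from -2.33 to -2.10 at pi-Ip6k1.2, from -0.96 to -0.77 at pi-1700006A11Rik.2, from -0.29 to -0.02 at pi-Luzp1.1 and from -0.73 to -0.51 at pi-Socs7.1. Over the 11 alternatives run for them the long RNA differences stayed above 0, from 1.23 to 1.48 at pi-Eif4ebp2.1, 0.44 to 0.60 at pi-Ip6k1.2, 0.68 to 0.78 at pi-1700006A11Rik.2, 0.45 to 0.59 at pi-Luzp1.1 and 0.24 to 0.71 at pi-Socs7.1; as the groups do not overlap, this sign is no separate support.

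In long RNA the count of calls over all 208 loci was 16, and 35 with DESeq2, 25 with edgeR's exact test, 26 at an adjusted p below 0.1 and 38 with the replicate block; the cause was not tested. Leaving out 1 library gave 0 to 105 long RNA calls. The counts of 0 came from edgeR quasi-likelihood fits that left out an Exd2+/+ replicate. Without replicate 1, 17 loci had an unadjusted p under 0.05, DESeq2 called 8, the exact test 5 and limma-voom 0, and without replicate 2 these counts were 20, 9, 5 and 0. Same-numbered libraries deviated together with r = 0.04 in small and 0.34 in long RNA across loci, over 2 pairs only, too few to settle whether the numbers pair the samples, and the labels do not say that they do. Among other named loci, the near-zero small RNA value of pi-Dcaf7.1 turned to 0.044 with library totals, 0.0045 with limma-voom and 0.0075 with the default option, and ran from -0.085 to 0.083 over the left-out libraries. That of pi-Ctdsp2.1 (-0.11) ran from -0.27 to 0.067 over the left-out libraries. The alternatives for the other named loci were added after seeing the data.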
